A study of Mus musculus with 4 samples.

Results

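Aminoacyl-tRNA synthetases join each amino acid to its transfer RNA (tRNA), the step that lets the ribosome read the genetic code. Cytosolic synthesis and mitochondrial synthesis use largely separate enzymes, all encoded in the nucleus, and the mitochondrial ones are marked here by a symbol ending in 2. Several cytosolic synthetases sit together in the multisynthetase complex, which is held by the scaffold proteins Aimp1, Aimp2 and Eef1e1. In activated T cells, protein synthesis increases, and the transcription factor ATF4, induced when amino acids are short, raises several cytosolic synthetase genes. The genes were chosen by symbol alone: 40 of the 23238 gene symbols in the count tables fitted the naming rule, and they comprised 20 cytosolic synthetase genes, 17 mitochondrial synthetase genes and 3 scaffold genes. All 40 passed the filter on low counts and were tested, among 11464 genes in all.

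The libraries came from mouse CD4+ T cells of the C57BL/6j strain, 2 labelled wild type (WT) and 2 labelled PDK4 KO (KO), the latter lacking the mitochondrial kinase that inhibits pyruvate dehydrogenase. Naive cells taken from spleen and lymph nodes by magnetic sorting were stimulated through CD3 and CD28 in the presence of IL-2 for 48 hours in both groups, and 500 ng of total RNA per library went into the Lexogen QuantSeq kit, which reads the 3' ends of polyadenylated transcripts. Neither the deleted part of Pdk4 nor the cells in which it was deleted is stated. Nothing in the labels tells if the 2 libraries of a genotype are separate mice, so the p-values reflect a between-library spread that could be technical. In these bulk samples, fewer cells of a type and less RNA per cell cannot be told apart.

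Total counts lay between 8837810 and 9739624 per library. The targeted gene Pdk4 had 0 to 2 counts in each of the 4 libraries, under a floor of 3 counts, so it checks nothing about the labels. The defining CD4 T cell markers were present and summed to 1770 and 1807 counts per 1000000 (CPM) in WT and 1747 and 1834 CPM in KO (7 genes). The 10 B cell markers summed to 169 and 205 CPM in WT and 102 and 116 CPM in KO. Of these markers, 6 of 8 tested were called lower (against 1.21% of all tested genes). Pax5 was at 0 in all libraries and Cd22 at 0 in both KO libraries. Without Cd74, the most abundant of them, the sums were 82.9 and 85.9 CPM in WT and 14.6 and 15.2 CPM in KO. The 10 CD8 T and NK cell markers summed to 420 and 435 CPM in WT and 269 and 253 CPM in KO. The 1 of 9 tested members called lower was Gzma, a granzyme, at 220 and 219 CPM in WT and 76.2 and 51.3 CPM in KO, and without it the sums overlapped, at 200.3 and 216 CPM in WT and 193 and 202 CPM in KO. Even so, 8 of the 9 were below 0, where 50.1% of all tested genes were above 0. In 4 both KO libraries were below both WT libraries, against 21.9% of all tested genes. Among these, Cd8a had 23 and 28 counts in WT and 4 and 5 in KO. Klrb1c had 31 and 46 counts in WT and 11 and 7 in KO. Neither was called. The 8 myeloid markers summed to 32.2 and 28.4 CPM in WT and 11.4 and 20.9 CPM in KO. Adgre1 had 0 counts in every library except WT replicate 2, where it had 3. The 1 of 3 called lower was Fcer1g, an Fc receptor chain, without which these sums overlapped too (10.9 and 8.88 CPM against 3.17 and 10.2 CPM). Erythroid markers (5 genes) followed no genotype, at 158 and 32.7 CPM in WT and 62.2 and 178 CPM in KO. The part of these cells in the differences below was not tested.

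The transcripts of the cytosolic synthetases were abundant and nearly the same in both genotypes. Levels are CPM after trimmed-mean (TMM) scaling, and since the kit gives about 1 tag per transcript they are compared between genes without division by length. The 20 genes together summed to 5628 and 5671 CPM in WT and to 5682 and 5637 CPM in KO, or 5650 ± 30.6 and 5659 ± 31.6 CPM (SD, n = 2 each). The KO libraries lay within or just beyond the range of the WT libraries. Of the 20 genes, 0 rose and 0 fell by the edgeR quasi-likelihood test (Benjamini-Hochberg adjusted p under 0.05 over all genes), against 2.66% of all tested genes called in either direction. The unadjusted p was under 0.05 for 2 of the 20 genes, against 13.5% of all tested genes, and DESeq2 and limma-voom also called 0.

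**Figure D1:**
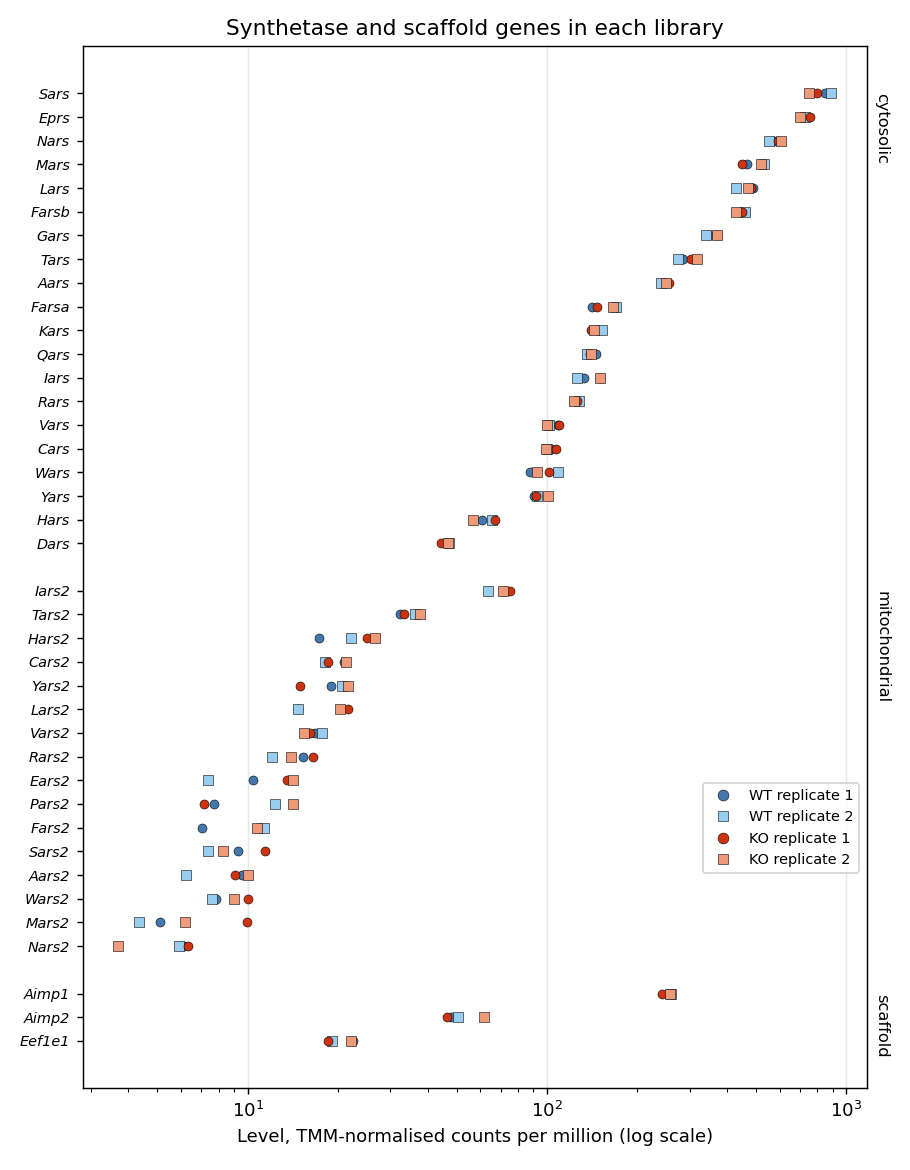
Level of 39 of the 40 genes in each library, in TMM-normalised CPM on a log axis, with genes in rows ordered by mean level within the cytosolic, mitochondrial and scaffold classes, blue for WT, red for KO, circles for replicate 1 and squares for replicate 2. The 4 libraries nearly coincide for the cytosolic genes and spread more for the mitochondrial genes, most of which lie under 40 CPM.

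Cytosolic levels spanned from 46.1 CPM for Dars, the aspartate enzyme, to 822 CPM for Sars, the serine enzyme (means over the 4 libraries). Sars (chromosome 3, 108424865 to 108445209, GRCm38, minus strand) ranked 115th among all tested genes by mean level and held 14.5% of the class sum. Eprs, a fused enzyme for glutamate and proline, came next with 745 and 728 CPM in WT and 758 and 703 CPM in KO. Both WT values of Eprs lay between the KO values. The 5 most abundant genes, Sars, Eprs, Nars (asparagine), Mars (methionine) and Lars (leucine), made up 54.7% of the class sum. Dars was the lowest, at 46.4 and 46.9 CPM in WT and 44.4 and 46.6 CPM in KO, with no wider gap between genotypes than between the KO libraries. Across the class, the highest library exceeded the lowest by a factor of 1.04 to 1.23 (median 1.10).

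The genotype difference of every cytosolic gene was bounded narrowly between these libraries. The intervals, like the p-values, rest on a between-library spread that could be technical. Their lowest count in any library was 408, for Dars, and the highest was 8411, for Sars. The 95% interval of the fold change, taken from the standard error of the edgeR fit, lay within 1.5-fold in either direction for 20 of 20 genes, against 47.4% of all tested genes, and within 1.3-fold for 19 of 20, the exception being Iars. The median log2 fold change (KO minus WT) was -0.01, beside 0.00 over all tested genes, and 9 of the 20 genes were above 0.

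**Figure D2:**
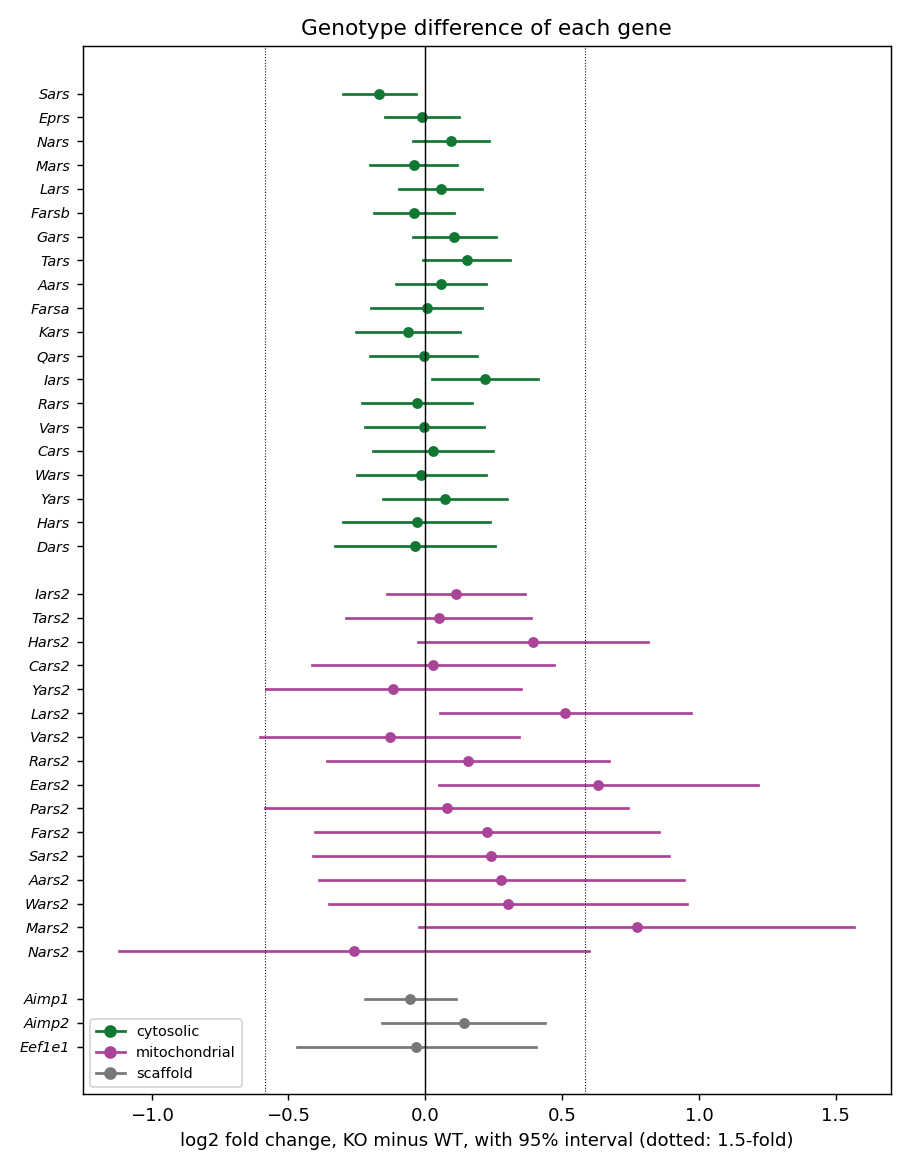
Genotype difference of the same 39 genes as the log2 fold change (KO minus WT, points) with its 95% interval (lines), in the same row order as the plot of levels, with dotted lines at 1.5-fold in either direction. All 20 cytosolic intervals lie between the dotted lines, while 4 of the 16 mitochondrial intervals shown do.

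Sars, named here as a known ATF4 target together with Aars and Asns, had the smallest p of the 40 genes. It stood at 850 and 889 CPM in WT and 796 and 752 CPM in KO. Both KO libraries were below both WT libraries. The log2 fold change was -0.17 (SE 0.0649, edgeR unadjusted p = 0.0145, adjusted p = 0.21), so it did not pass the test, and its 95% interval ran from -0.30 to -0.04. Iars, the isoleucine enzyme of the multisynthetase complex (chromosome 13, 49682100 to 49734267, GRCm38, plus strand), stood at 133 and 126 CPM in WT and 150.1 CPM in each KO library. The KO libraries were above both WT libraries, by a log2 fold change of 0.22 (SE 0.0954, edgeR unadjusted p = 0.0297, adjusted p = 0.293).

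Gars and Kars, the glycine and lysine enzymes, each serve cytosol and mitochondria from a single gene. Gars was at 347 and 341 CPM in WT and 370 and 371 CPM in KO, higher in both KO libraries by 0.11 on the log2 scale (adjusted p = 0.589 in edgeR). Kars was at 144 and 153 CPM in WT and 141 and 144 CPM in KO, lower in both KO libraries by a log2 fold change of -0.06 (adjusted p = 0.851 in edgeR). Neither passed the test. Wars, the tryptophan enzyme, is known as an interferon-gamma-induced gene. It was at 88.0 and 109 CPM in WT and 102 and 92.9 CPM in KO, so the KO values fell between the WT values (log2 fold change -0.01, 95% interval -0.25 to 0.22, adjusted p = 0.979 in edgeR). Of 21 other interferon-gamma-induced genes listed, 2 rose and 0 fell, against 1.45% of all genes called higher and 1.21% called lower. They were Iigp1, an immunity-related GTPase, with a log2 fold change of 0.48 (adjusted p = 0.00427), and Tapbp, which helps load MHC class I, with 0.27 (adjusted p = 0.0306). The list's median was 0.13. Tapbp was not called when any library was left out (adjusted p from 0.0769 to 0.299), nor Iigp1 without WT replicate 1 (adjusted p = 0.164).

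Cytosolic genes were also grouped by a promoter element, and those with it had values above 0 in KO, although no gene passed the test. Only the presence of the element was planned as a description. The split of fold changes by it was not planned and was made with results of these data known. RefSeq windows on GRCm38.p6, from 250 bases before to 50 bases after an annotated start, matched 30 of the 40 genes, 13 of them cytosolic, 14 mitochondrial and 3 scaffold. They were searched on both strands for TGATGNAA, the C/EBP-ATF response element through which ATF4 acts on amino acid response genes. It was found in 5 of 13 cytosolic genes (38.5%), 0 of 14 mitochondrial genes and 0 of 3 scaffold genes, against 4.51% of all genes with a window. A match of each gene within 100 bases of the start is shown because they define the groups compared next, 5′ to 3′ on the gene's strand with the matched bases in capitals. TTNCATCA is the same element on the opposite strand. The positions are chr8:111033841-111033868 for Aars, chr6:55037961-55037988 for Gars, chr13:49682127-49682154 for Iars, chr15:11399656-11399683 for Tars and chr4:129189896-129189923 for Yars, with Tars on the minus strand and the others on the plus strand. The match in Asns, asparagine synthetase and a well-known ATF4 target that is no synthetase of tRNA, is given for comparison (chr6:7693215-7693242, minus strand). Of the other ATF4-related genes described below, Nupr1 also had a match in its window, and Slc7a1 and Atf4 had none.
Aars: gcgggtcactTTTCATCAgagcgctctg
Gars: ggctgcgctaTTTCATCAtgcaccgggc
Iars: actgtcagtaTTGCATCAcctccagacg
Tars: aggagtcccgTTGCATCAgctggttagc
Yars: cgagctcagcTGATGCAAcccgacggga
Asns: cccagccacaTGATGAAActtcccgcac

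The 5 cytosolic genes with a match were all above 0 in KO, with log2 fold changes of 0.06 for Aars (alanine), 0.07 for Yars (tyrosine), 0.11 for Gars, 0.15 for Tars (threonine) and 0.22 for Iars, and a median of 0.11. In 4 of the 5, both KO libraries were above both WT libraries, where 21.5% of all tested genes had that order. Yars was the exception, at 90.3 and 92.9 CPM in WT and 91.6 and 101 CPM in KO. Tars was at 286 and 273 CPM in WT and 303 and 317 CPM in KO (95% interval of the log2 fold change -0.01 to 0.31). Aars was at 246 and 241 CPM in WT and 256 and 250.4 CPM in KO (means 243 and 253 CPM). The gap between its nearest WT and KO libraries was about as wide as that between replicates. Of the 8 cytosolic genes whose window held no match, 1 was above 0 (Farsa, 0.01) and the median was -0.04. In 0 of the 8 were both KO libraries above both WT libraries, and in 2 both were below, against 21.9% of all tested genes. The known ATF4 target Sars was among these 8 and had the lowest value, -0.17. The 7 cytosolic genes with no window lay in between, with 3 above 0, a median of -0.0045 and 1 with both KO libraries above both WT libraries. The difference between these small groups was not tested. Over all tested genes with a window, the median was 0.02 for the 258 with the element and 0.00 for the 8483 without. Of these, 53.1% and 50% were above 0, and 23.6% and 21.4% had both KO libraries above both WT libraries. Called higher were 3.10% and 1.24%, and called lower 1.94% and 1.18%. The element marks letters in a window and no measured binding. All 5 genes kept a value above 0 in 12 of 13 alternatives, and without KO replicate 2 it was 4 of 5, with Yars at -0.000337. Of the 8 without a match, 0 to 3 were above 0 over the same alternatives, the 3 with library size only.

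**Figure D3:**
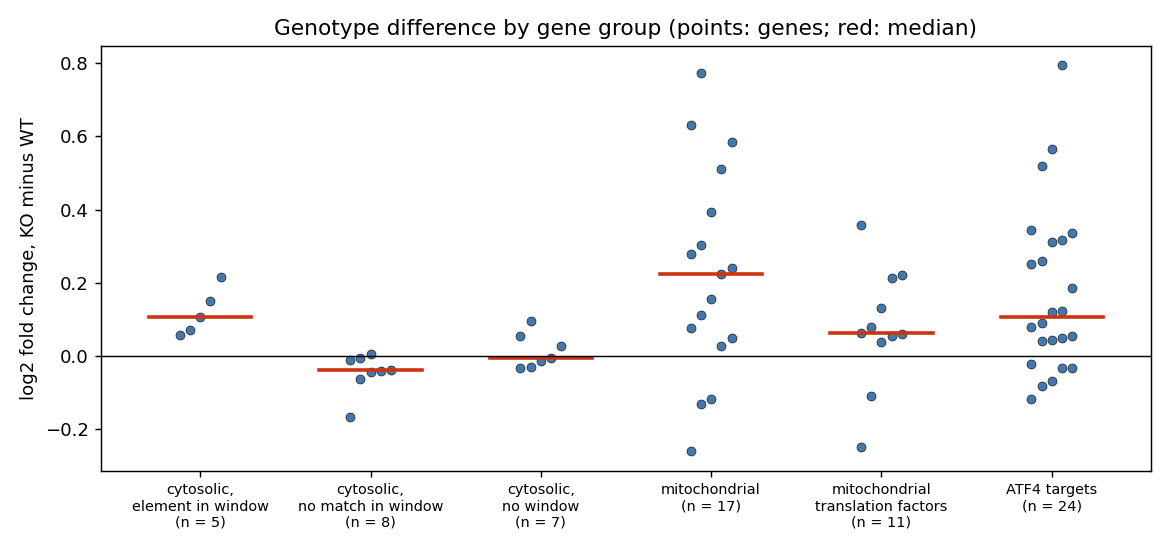
Log2 fold change (KO minus WT, vertical axis) of each gene as a point, with red lines at group medians, for cytosolic synthetases split by the TGATGNAA element in the RefSeq promoter window, mitochondrial synthetases, mitochondrial translation factors and other ATF4 targets. The 5 genes with the element lie above 0, and 7 of the 8 without a match lie below it (5 of 8 with library size only).

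Other genes of the amino acid response included called rises. Of 24 listed ATF4 targets and regulators, 3 rose and 0 fell, against 1.45% and 1.21% of all tested genes, with a median log2 fold change of 0.11. Sars and Aars, as members, were not in this list. Above 0 were 18 of the 24, where 50.1% of all tested genes were, and 6 were below 0. In 14 both KO libraries were above both WT libraries, and in 2 both were below, against 21.5% and 21.9% of all tested genes. The 2 were Psat1 (-0.07) and Ddit4 (-0.12), neither of them called. Asns went from 167 and 180 CPM in WT to 244 and 252 CPM in KO, with no overlap (log2 fold change 0.52, SE 0.0862, edgeR adjusted p = 0.000189). Nupr1, a stress-induced chromatin protein, rose from 46.6 and 52.0 CPM to 70.8 and 75.2 CPM (0.56, adjusted p = 0.00974). Slc7a1, a transporter of cationic amino acids, rose from 298 and 260.3 CPM to 368 and 327 CPM (0.32, adjusted p = 0.0274). Atf4 itself was at 1250 and 1367 CPM in WT and 1232 and 1328 CPM in KO and did not pass (adjusted p = 0.897). Asns kept its call in all 13 alternatives. Slc7a1 lost it without WT replicate 2 (adjusted p = 0.362), without KO replicate 1 (0.439) and with upper quartile scaling (0.0668), and Nupr1 lost it without WT replicate 1 (0.106) and without KO replicate 2 (0.105).

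The multisynthetase complex showed no called change in its enzymes or its scaffold. Its 8 synthetases (Dars, Eprs, Iars, Kars, Lars, Mars, Qars and Rars) summed to 2293 and 2277 CPM in WT and 2290 and 2296 CPM in KO, and 2 of the 8 were above 0, with a median of -0.02. The 12 cytosolic genes outside the complex had a median of 0.02. Aimp1, the most abundant scaffold gene, was at 259 and 261 CPM in WT and 242 and 258 CPM in KO (log2 fold change -0.05, adjusted p = 0.852 in edgeR). Aimp2 was at 47.7 and 50.3 CPM in WT and 46.5 and 61.6 CPM in KO, its value in KO replicate 2 standing above the others. Eef1e1 was the lowest at 22.5 and 19.1 CPM in WT and 18.6 and 22.1 CPM in KO. Of the 3 scaffold genes, 0 rose and 0 fell, against 1.45% and 1.21% of all tested genes, with a median of -0.03. Their intervals lay within 1.5-fold for 3 of 3, against 47.4% of all tested genes. Scaffold transcripts did not match each other in level, since Aimp1 made up 77.9% of their sum.

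Mitochondrial synthetase transcripts were far fewer and their sum was somewhat higher in KO. The 17 genes together summed to 283 and 276 CPM in WT and 313 and 320.1 CPM in KO, or 279 ± 5.35 and 317 ± 4.80 CPM (SD, n = 2 each), a ratio of 1.13. Both KO libraries were above both WT libraries. No test was run on this sum, since its genes were grouped with results known. In the gene test 0 of 17 rose and 0 fell, against 1.45% and 1.21% of all tested genes. The unadjusted p was under 0.05 for 3 of 17 in edgeR, while 13.5% of all tested genes had such a p. The class median was 0.23 beside 0.00 over all tested genes, and 14 of the 17 were above 0 (82.4%), where 50.1% of all tested genes were. In 6 of the 17 both KO libraries were above both WT libraries, and in 1, Vars2, both were below, against 21.5% and 21.9% of all tested genes.

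**Figure D4:**
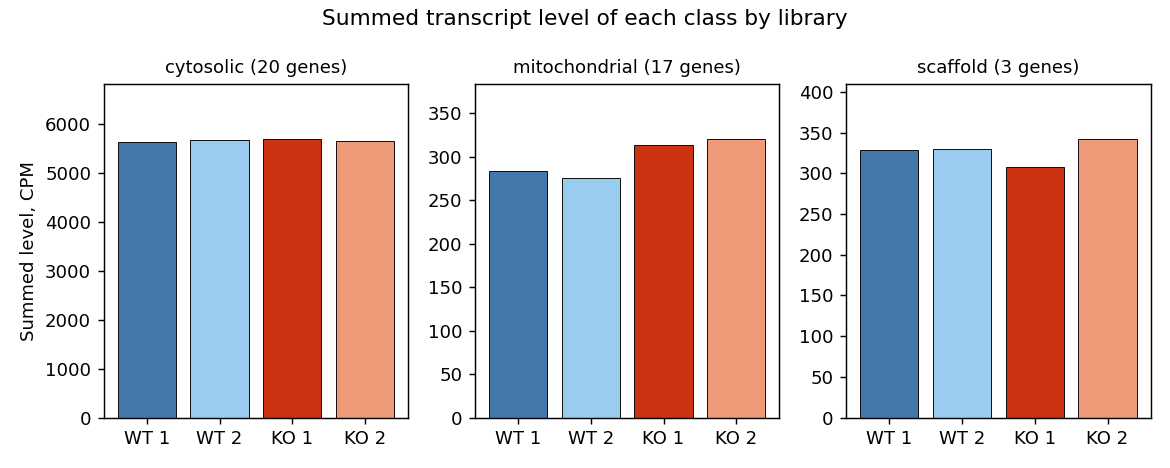
Summed level of each class in each library, in CPM on axes that start at 0, for 20 cytosolic, 17 mitochondrial and 3 scaffold genes. Cytosolic sums lie between 5628 and 5682 CPM, and mitochondrial sums are 283 and 276 CPM in WT and 313 and 320.1 CPM in KO.

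Lars2, the mitochondrial leucine enzyme (chromosome 9, 123366927 to 123462666, GRCm38, plus strand), had the smallest spread between replicates among the mitochondrial genes with a p under 0.05. It had 130 and 139 counts in WT and 212 and 187 in KO, or 14.8 and 14.7 CPM against 21.7 and 20.4 CPM. The KO libraries lay above both WT libraries by a log2 fold change of 0.51 (SE 0.225, edgeR unadjusted p = 0.0299, adjusted p = 0.294), with a 95% interval from 0.05 to 0.97. Ears2, the glutamate enzyme (chromosome 7, 122037213 to 122067263, minus strand), also charges the tRNA for glutamine in mitochondria, where an amidotransferase then converts the amino acid. It was at 10.5 and 7.40 CPM in WT and 13.5 and 14.1 CPM in KO (0.63, SE 0.286, edgeR adjusted p = 0.313), and the log2 fold change ran from 0.40 without WT replicate 2 to 0.90 without WT replicate 1. Both of its KO values were above both WT values, and neither gene passed the adjusted test.

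The largest log2 fold change of the 40 genes was that of Mars2, the methionine enzyme, which is described here because of its value. It had 45 and 41 counts in WT and 97 and 57 in KO, or 5.12 and 4.33 CPM against 9.92 and 6.20 CPM. The KO libraries differed from each other by more than KO replicate 2 did from the WT libraries, and the log2 fold change of 0.77 (SE 0.39, edgeR adjusted p = 0.387) was 0.39 without KO replicate 1 and 1.07 without KO replicate 2. Hars2 (histidine) and Wars2 (tryptophan) also had both KO libraries higher, at 0.39 and 0.30, with adjusted p of 0.41 and 0.761 in edgeR. The value of Hars2 was 0.23 without WT replicate 1 and 0.58 without WT replicate 2. Only Nars2, Vars2 and Yars2 were below 0.

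At the upper end of the class, Iars2 (isoleucine) was at 72.3 and 63.4 CPM in WT and 75.1 and 71.6 CPM in KO, and Tars2 (threonine) at 32.4 and 36.1 CPM in WT and 33.4 and 37.5 CPM in KO. Genotypes overlapped in both, and these genes held 23.7% and 11.7% of the class sum. Nars2 (asparagine) was the lowest of all 40 genes, at 6.14 and 5.92 CPM in WT and 6.34 and 3.70 CPM in KO. Its count of 34 in KO replicate 2 has a 95% Poisson interval from 23.6 to 47.5, which covers counting error only. The 95% interval of the fold change reached past 1.5-fold for all of the 17 genes except 4, namely Iars2, Tars2, Cars2 and Yars2. In the others a difference of that size lay within the interval. Counting error alone, from the summed counts of each genotype, was 0.14 in log2 at the median of the class, beside a median fitted SE of 0.28, and it was 0.0385 beside 0.0948 for the cytosolic genes. The highest library exceeded the lowest by a median factor of 1.54 in this class.

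Each mitochondrial enzyme was set against its cytosolic counterpart for the same amino acid (Eprs for Ears2 and Pars2, Farsa for Fars2). The cytosolic transcript was the more abundant in 17 of 17 pairs, by a median factor of 11.3. The factor ran from 1.98 for isoleucine (Iars over Iars2) to 105 for asparagine (Nars over Nars2). For methionine it was 106 in WT and 60.1 in KO, and for leucine 31.0 and 22.6. By library, the methionine factor was 91.1 and 123 in WT and 45.3 and 83.7 in KO. The asparagine factor went the other way, at 93.1 in WT and 119 in KO, with 93.6 in KO replicate 1 and 164 in KO replicate 2. The order of levels in one compartment did not carry over to the other: Sars was the most abundant cytosolic gene and Sars2 was 13th of 17 among the mitochondrial ones. A lower factor in KO than in WT was seen in 11 of 17 pairs.

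Other genes of translation gave few calls, and their counts stand against 1.45% of all tested genes called higher, 1.21% called lower and 50.1% above 0. Of 13 genes that assist charging, such as editing factors and the mitochondrial amidotransferase subunits, 0 rose and 0 fell (median 0.08). The smallest p there belonged to Trnt1, which adds the CCA end to tRNAs, with a log2 fold change of 0.38 (edgeR adjusted p = 0.273), and to Mtfmt, which formylates the mitochondrial initiator tRNA, with 0.49 (adjusted p = 0.297). Among 11 mitochondrial translation factors, 0 rose and 0 fell, 9 were above 0 and the median was 0.06, with the smallest p for Mrrf, a ribosome recycling factor (0.36, adjusted p = 0.501), and Mtif2, an initiation factor (0.21, adjusted p = 0.534). Of 10 tested cytosolic elongation and termination factors, Eif5a rose, from 740.3 and 733 CPM to 896 and 839 CPM (0.24, edgeR adjusted p = 0.0391), 0 fell, and the median was 0.10. The next was Abce1, a ribosome recycling factor (0.40, adjusted p = 0.109). Eif5a was not called when any library was left out, with adjusted p from 0.0561 to 0.439.

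Neighbouring genes limit a few values, because the use of strand in counting is not given in the sources used here. The annotated 3' ends of 5 members lay within 1000 bases of that of a protein-coding gene on the other strand. Mars ends over Ddit3, a stress-induced transcription factor, with 68 shared bases, and Ddit3 had 4746 and 5961 counts in WT and 5791 and 5651 in KO, so reads of each may be counted in the other. Fars2 shares 920 bases with Nrn1, which had 50 and 68 counts in WT and 176 and 116 in KO, while Fars2 had 62 and 107, and 105 and 99. Cars2 shares 984 bases with Naxd, listed under its older symbol with 94 and 181, and 221 and 220 counts. Yars met C77080, with 28 to 41 counts, and Mars2 met Boll, with 0 counts in both WT and 5 in both KO libraries. The values of these members are uncertain to that extent.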

How the data were processed

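RNA was measured in 4 libraries of activated CD4+ T cells, 2 WT and 2 KO. The authors deposited raw counts, 1 whole number per gene symbol and library. Bowtie2, edgeR and mm10 are named, per the submitters' processing notes, without roles or versions. How reads were counted (tool, annotation, strand, reads with several matches) is not given in the sources used here. Bowtie2 does not align across introns, which would lower genes with spliced 3' reads in both genotypes. Of 23282 rows, 35 symbols listed more than once were summed. The genotype test was edgeR 4.0.16 (R 4.3.3) by two-sided quasi-likelihood F test on all 11464 genes passing filterByExpr, with TMM scaling (factors 0.989 to 1.01), genotype as the only term and Benjamini-Hochberg adjustment. A gene is called, and "rose" or "fell" used, at an adjusted p under 0.05. The SE is the size of the log2 fold change over the square root of F. The 95% intervals use the t distribution with 32.0 degrees of freedom, residual and prior together. A floor of 3 counts is 0.308 to 0.339 CPM. No molecular identifiers are named, so floors and intervals from counts cover counting error only.

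The naming rule picked members by symbol alone, but the rule, the lists and the tests were chosen with earlier results of these data known. All members could be named. Values in every library were fixed for members with a p under 0.05, the 2 highest and the lowest of each class, Wars, Kars, Gars, Aars, Sars and Asns. Those of other genes were added after their values were seen. From each list, called genes and the 2 smallest p were named. GENCODE vM21 gave positions (GRCm38, the same assembly as mm10) and RefSeq gave windows, where 8741 of the tested genes matched by symbol. Protein features were planned and not analysed here. The values of 1 member, which stays in the class counts and sums, and 1 promoter match are not reported here. The script was tested on simulated data. Alternatives covered scaling, filters, DESeq2 1.42.0, limma 3.58.1 (voom), Rn45s, a replicate block and leaving out each library. Libraries of a genotype differed beyond sampling noise (chi-square per degree of freedom 5.40 in WT and 5.45 in KO, against 7.89 to 10.3 between genotypes). Over the 40 members alone it was 5.27 and 5.56 within genotypes. Between genotypes it was 3.41 (WT replicate 1 and KO replicate 1), 6.51, 8.94 and 9.72. The lowest of these lay under both values within genotypes and the others above both, so the members did not fully separate the genotypes in this measure.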

Additional observations from a re-analysis of the deposited data

How the results depend on the processing

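Across 13 alternatives, 0 of the 40 members were called in any, with the smallest adjusted p of 0.124 for Sars in limma-voom. The median log2 fold change of the mitochondrial genes lay between 0.128 and 0.23 when a library was left out, with 11 to 14 of the 17 above 0. Of the 14 above 0 with all libraries, 11 to 13 were so then, while Yars2 (without KO replicate 1) and Nars2 (without KO replicate 2) crossed to above 0. Their summed ratio (KO over WT), an alternative set added after seeing the data as were those of the lists, lay between 1.12 and 1.15. The cytosolic median was 0.0164 with library size only and -0.0022 to 0.0453 with a library left out, so its sign is not fixed, and its main value was smaller than the shift between scalings. Leaving out a library gave 92 to 148 genes called higher and 75 to 145 called lower over all genes. The elongation factor list then had 0 rises and 0 to 1 falls, and the interferon-gamma list 0 to 1 rises and 0 to 1 falls. With upper quartile scaling these lists had 0 and 1 rises.

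The labels do not say that replicate numbers mark a shared batch, and deviations of same-numbered libraries had a correlation of 0.0068 over genes. A replicate block gave 260 calls over all genes in place of 305 and called 0 members. Signs changed for genes near 0, none of them called. They were Farsa (-0.00485 with upper quartile scaling and -0.000696 with the stricter filter) and, with library size only, Eprs (0.0109), Qars (0.0158), Vars (0.0170) and Wars (0.0076). Ranges over the 4 fits without a library that crossed 0 were Aars2 -0.00194 to 0.614, Aimp2 -0.0749 to 0.329, Cars -0.0284 to 0.0803, Cars2 -0.0789 to 0.131, Eef1e1 -0.162 to 0.0883, Eprs -0.0664 to 0.0414, Fars2 -0.0724 to 0.606, Farsa -0.12 to 0.142, Hars -0.161 to 0.0842, Lars -0.0353 to 0.15, Mars -0.151 to 0.0563, Nars2 -0.703 to 0.0718, Pars2 -0.492 to 0.489, Qars -0.0567 to 0.0442, Rars2 -0.0111 to 0.34, Sars2 -0.015 to 0.454, Tars2 -0.037 to 0.13, Vars -0.0702 to 0.0563, Wars -0.157 to 0.144, Yars -0.000337 to 0.138 and Yars2 -0.408 to 0.128. In these fits the lone library of a genotype is assumed to vary like the others. Ranges that kept their sign but moved by over 1.5 times included Aimp1 -0.101 to -0.00967, Dars -0.073 to -0.00349, Ears2 0.399 to 0.90, Farsb -0.0774 to -0.00703, Hars2 0.23 to 0.581, Iars2 0.0181 to 0.21, Kars -0.105 to -0.0214, Mars2 0.392 to 1.07 and Rars -0.0453 to -0.0141. The median 95% half-width was 0.57 in log2 for the mitochondrial genes and 0.19 for the cytosolic genes. At the median, counting error was 0.493 and 0.396 times the fitted SE. The cause of these shifts and widths was not tested.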
